A study of Bos taurus with 10 samples.

Results

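The splicing factors, heterogeneous nuclear ribonucleoproteins (hnRNPs) and paraspeckle proteins were described in bovine embryos across a dose series of senktide. The genes were chosen by name: SNRP, SF3A, SF3B, SRSF, SFRS, HNRNP, HNRP and PRPF genes, with NONO, SFPQ, PSPC1, RSRC2 and ISY1. They made up 71 of the 25325 gene names on the array and were carried by 222 of its 43653 probes. Each gene was represented by its brightest probe, and 58 of the 71 genes had more than 1 probe. Embryos had been flushed from superovulated cows 7 days after the first insemination. The cows had received a vein infusion of senktide, a peptide that activates the receptor for neurokinin B, over 2 h, starting 48 h into the superovulation. The rate was 30 nmol/min (the lower dose, 4 samples) or 300 nmol/min (the higher dose, 4 samples), and 2 samples came from cows given the DMSO vehicle. The vehicle cows were superovulated and inseminated with frozen-thawed semen as well. The labels do not give the breed or age of the cows, the number of embryos in a sample or whether samples came from separate cows, so p-values below reflect no more than how far these samples spread, and that spread may be technical.

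Pre-mRNA splicing is carried out by the spliceosome, which is built from small nuclear ribonucleoproteins (snRNPs) that carry a ring of Sm proteins, from the SF3a and SF3b complexes that bind the branch site, and from PRPF proteins that assemble and remodel the machine. SR proteins (SRSF) promote the use of exons, and hnRNPs coat the transcript and often oppose them. NONO, SFPQ and PSPC1 are related RNA-binding proteins of the paraspeckle, a nuclear body built on the long noncoding RNA NEAT1. Once the embryo has activated its own genome, its new transcripts must pass through this machinery.

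The 10 arrays lay on 3 slides, and brightness followed the slide. All 3 groups had 1 array on slide 1 and 1 on slide 2, while slide 3 carried 2 arrays of each senktide dose and none of vehicle. Of all probes, 7.16% to 13.2% were well above background, as flagged by the scanner software, on the arrays of slides 1 and 2, and 18.25% to 19.6% on slide 3. Of 10 trophectoderm markers on the array 9 were well above background on at least 1 array and 7, among them KRT8, KRT18 and GATA3, on all 10. CDX2, the tenth, was so on none. Of 6 inner cell mass markers SOX2 and KLF4 were so on all 10, POU5F1 on 4, SALL4 on 1 and NANOG and LIN28A on none. Neither POU5F1 nor SALL4 was so on a vehicle array. Of 6 primitive endoderm markers LAMB1 was so on 9, COL4A1 on 7, PDGFRA on 6 and GATA6, GATA4 and SOX17 on none. Of 7 leukocyte genes LYZ was well above background on all 10 arrays, PTPRC and ITGB2 on some senktide arrays and no vehicle array, and CD68, CD14, S100A8 and S100A9 on none. Of the blood genes HBA was so on 2 arrays of each dose and no vehicle array and HBB on none. Of 4 genes of uterine and oviduct epithelium CLU was so on 4 and 3 arrays of the doses, MUC1 on 1 and OVGP1 and FOXA2 on none, and of 5 stroma genes COL1A2 was so on 1 and 2, DCN on 0 and 2 and COL1A1, COL3A1 and VIM on none, in each case with no vehicle array. The part of such cells in the results below was not tested. The extraction text of the labels speaks of endometrium, whereas titles, source and tissue fields name embryos. In whole embryos, fewer cells of a type and less RNA per cell cannot be told apart.

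The results turn on what single probes reported, so the probes on which the genes differed are shown first, as 60 bases of the transcript's strand in build Btau_3.1. The NONO transcript had 2 probes in its middle that went against the probe near its end. The first lies at chrX:49181303-49181587 and the second at chrX:49180516-49181268, both on the minus strand and both longer on the genome than on the transcript, so that each crosses an intron. They start at bases 1198 and 1292 of the transcript.
NONO base 1198: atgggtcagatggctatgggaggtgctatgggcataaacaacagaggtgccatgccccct
NONO base 1292: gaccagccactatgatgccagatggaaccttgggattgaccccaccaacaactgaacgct

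SNRPD1, which encodes an Sm ring protein, had 2 probes upstream of its brightest one. They start at bases 187 and 336 of the transcript and lie on the minus strand at chr24:35733207-35734766, across an intron, and at chr24:35733058-35733117. They are shown because their direction differed from that of the third.
SNRPD1 base 187: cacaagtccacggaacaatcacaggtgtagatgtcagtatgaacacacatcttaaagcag
SNRPD1 base 336: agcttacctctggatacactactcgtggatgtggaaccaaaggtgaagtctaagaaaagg

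RSRC2 encodes a protein rich in arginine and serine, and its brightest probe, starting at base 809 of the transcript, had the smallest p of the 65 tested genes against vehicle at each dose. It is shown with the probe at base 1057, where the differences were smaller. They lie on the plus strand at chr17:55602652-55605078, across at least 1 intron, and at chr17:55606569-55606628.
RSRC2 base 809: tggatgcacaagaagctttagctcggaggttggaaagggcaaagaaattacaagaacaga
RSRC2 base 1057: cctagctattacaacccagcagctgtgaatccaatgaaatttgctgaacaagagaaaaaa

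Runs of serine and arginine codons, the mark of the SR family, are in capitals in 3 chosen probes, as the longest such run in a reading frame without a stop codon. No count of such runs over the other probes is given. The run was 6 codons in RSRC2 (chr17:55600808-55601336, plus strand), 11 in SRSF6 (chr13:72853916-72853975, plus strand) and 5 in SRSF7 (chr11:22304934-22304993, minus strand). The RSRC2 probe was well above background on 0 arrays, the SRSF6 probe on 1 and the SRSF7 probe on 9.
RSRC2 base 456: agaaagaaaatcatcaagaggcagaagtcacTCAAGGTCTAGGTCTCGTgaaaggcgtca
SRSF6 base 941: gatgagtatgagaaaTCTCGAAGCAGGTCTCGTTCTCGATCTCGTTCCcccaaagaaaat
SRSF7 base 429: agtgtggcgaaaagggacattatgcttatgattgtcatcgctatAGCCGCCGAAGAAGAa

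HNRNPH1 and HNRNPF encode closely related hnRNPs that bind runs of G. The 2 HNRNPH1 probes shown lie on the plus strand at chr7:1550513-1550962 and chr7:1550919-1551070 and share the 44 bases in capitals. In the HNRNPF probe, at chr28:12501258-12501317 on the minus strand, capitals mark the 11 bases that form its longest run in common with the first HNRNPH1 probe.
HNRNPH1 base 1054: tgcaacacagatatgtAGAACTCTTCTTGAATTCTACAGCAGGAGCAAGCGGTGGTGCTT
HNRNPH1 base 1070: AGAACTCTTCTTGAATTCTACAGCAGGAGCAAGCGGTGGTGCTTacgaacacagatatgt
HNRNPF base 1292: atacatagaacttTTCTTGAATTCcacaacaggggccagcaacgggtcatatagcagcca

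Most of the splicing genes were detected, and how many depended on the slide. Testing needed a signal well above background on 2 or more arrays, which 65 of the 71 genes had; 3 genes had it on 1 array (SFRS12IP1, PRPF39 and PRPF6) and 3 on none (SFRS15, SFRS17A and SFRS8). The genes well above background numbered 33 and 46 on the vehicle arrays. They numbered 51, 43, 65 and 66 at the lower dose and 47, 54, 63 and 65 at the higher dose. The 4 highest counts were the 4 arrays of slide 3, and on slide 2 the array of the lower dose stood below its vehicle array. Shares of the 71 genes were 55.6% ± 12.95 (SD, n = 2) with vehicle, 79.2% ± 15.7 (SD, n = 4) at the lower dose and 80.6% ± 11.75 (SD, n = 4) at the higher dose. Neither dose differed from vehicle past the threshold (two-sided exact permutation p = 0.2 and 0.133, each 0.267 adjusted over the 4 comparisons; with 15 arrangements the smallest possible p is 0.0667). Both doses together differed by 24.3 percentage points (exact permutation p = 0.0444, 0.178 adjusted over the 4 comparisons), with 22.5 points within slide 1 and 3.52 within slide 2. Over all 222 probes of these genes 22.1% and 32.4% were well above background on the vehicle arrays, and 51.8% to 54.5% on slide 3. By these probes both doses together differed by 16.6 points (exact permutation p = 0.0667, 0.267 adjusted over the 4 comparisons). Detection rose over the whole array as well, from 8.29% of all probes with vehicle to 15.03% for both doses, by 6.74 points (exact permutation p = 0.111, 0.267 adjusted).

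**Figure D1:**
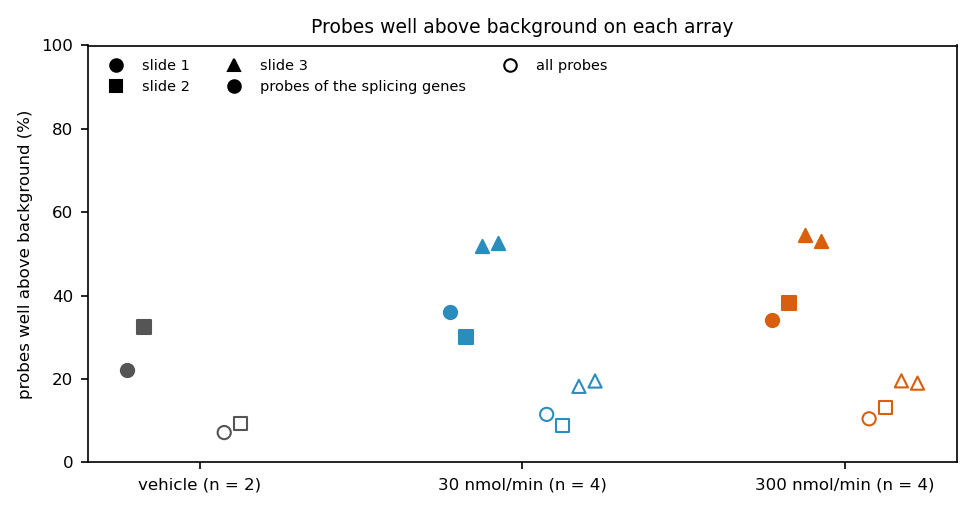
Share of probes well above background (percent, y axis) on each of the 10 arrays by group, with filled marks for the 222 probes of the splicing genes, open marks for all 43653 probes and the shape giving the slide. The 4 slide 3 arrays (triangles) are the highest in both sets, at 51.8% to 54.5% and 18.25% to 19.6%.

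The families differed in how steadily they were detected. Of the 65 tested genes 31 were well above background on all 10 arrays, or 47.7%, against 28.03% of the 6619 gene names tested by their brightest probe. All 11 SNRP genes were tested and 9 of them were well above background on all 10 arrays, SNRPA1 on 9 and SNRPN, an imprinted relative of SNRPB, on 6. All 8 SF3 genes were tested and 4 were so on all 10, as were 10 of 18 hnRNP genes, 6 of 14 tested SR genes and 1 of 9 tested PRPF genes, PRPF8. A further 8 genes were well above background on exactly the 4 arrays of slide 3 (HNRNPC, HNRNPH2, HNRNPL, HNRPLL, PRPF18, SF3A2, SFRS12 and PSPC1, all but PSPC1 named after their values were seen). They made up 12.3% of the tested genes, against 16.8% of all tested gene names. In all, 24 of the 71 genes were well above background on no vehicle array, of which 21 were so on a senktide array and 3 on no array. The like share over all gene names was not counted, so this count is a description.

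The level of the splicing genes against vehicle was the question of the main comparison. In each of the 4 comparisons 0 of the 65 tested genes were past the threshold of an adjusted p of 0.05 by limma, with 0% of 6619 gene names past it for each dose and between the doses, and 0.0151% for both doses together. At an unadjusted limma p under 0.05, 5 genes stood above and 4 below vehicle at the lower dose, as did 4.99% and 6.35% of gene names. At the higher dose it was 5 above and 6 below, with 5.88% and 7.86% of gene names. Between the doses 1 gene, HNRNPA2B1, stood above and 0 below, with 1.65% and 1.27% of gene names. Both doses together gave 5 above and 6 below, with 5.97% and 8.55% of gene names. These counts were near the background shares. ISY1, HNRNPC and SFPQ, among the genes above vehicle at each dose, and HNRPLL, among those below, had no vehicle signal well above background. They were among 18 of the 65 tested genes that passed the filter through senktide arrays alone. Both these counts and those of groups without overlap include such genes. Groups did not overlap for 9 genes above and 7 below vehicle at the lower dose, with 7.72% and 11.7% of gene names, and for 13 and 14 at the higher dose, with 9.47% and 16.3%.

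By their brightest probes the genes had a median difference above that of all probes, and less so over all of their probes. The median difference in log2 signal from vehicle was 0.015 at the lower dose and 0.088 at the higher dose, against −0.109 and −0.111 over all 8938 tested probes. Positive differences were found for 34 and 38 of the 65 genes, where 40.1% and 40.8% of gene names were positive. Over all 121 tested probes of the genes the medians were −0.081 and 0.008, with 51 and 62 positive. The order turned under quantile normalization, where the medians were 0.212 and 0.267 for the genes and 0.320 and 0.371 for all probes, and at the lower dose on slides 1 and 2 alone, at −0.091 and −0.061. Without vehicle 1 the medians of the genes were −0.044 and 0.021, against −0.086 and −0.085 for all probes. Scaling arrays to all probes adds 1 amount to every difference, and moved the median of all probes to 0.948 and 1.061 at the 75th percentile, which turns the sign of every small negative difference given here. Among the 31 genes well above background on all 10 arrays the medians were 0.016 and 0.107. By family the medians at the lower and higher dose were 0.165 and 0.212 for the 11 SNRP genes, 0.132 and 0.160 for the 8 SF3 genes, −0.121 and 0.007 for the 14 SR genes, −0.026 and 0.059 for the 18 hnRNP genes and 0.002 and 0.088 for the 9 PRPF genes. The vehicle arrays are shared by the comparisons of both doses, so the values at the doses are not independent.

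**Figure D2:**
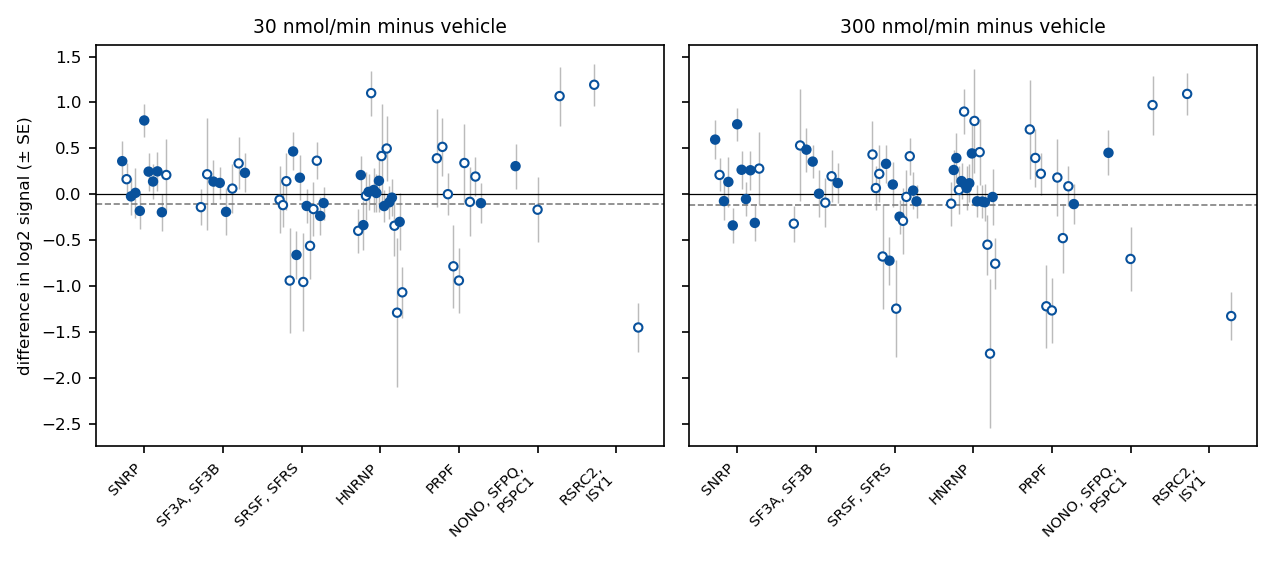
Difference in log2 signal from vehicle (y axis) of each of the 65 tested genes at 30 nmol/min (left) and 300 nmol/min (right), by family, with bars for the limma standard error, filled points for genes detected so on every array, and a dashed line at the median of all tested probes (−0.109 and −0.111). SNRPD1 stands highest among the filled points, at 0.80 and 0.76, and RSRC2 lies at −1.45 and −1.32.

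Among the Sm and snRNP proteins, SNRPD1 stood furthest from vehicle. Its brightest probe, which starts at base 591, read log2 signals of −1.10 and −1.16 in the vehicle samples, relative to each array's scale. It read −0.45, −0.43, −0.28 and −0.13 at the lower dose and −0.29, −0.42, −0.33 and −0.42 at the higher dose. Every senktide sample was above both vehicle samples. The differences were 0.80 (SE 0.18, limma adjusted p = 0.206) and 0.76 (SE 0.18, limma adjusted p = 0.176), or 1.75-fold and 1.7-fold, and did not pass the threshold. Within slides 1 and 2 the differences were 0.65 and 0.72 at the lower dose and 0.81 and 0.73 at the higher dose. The probes shown above did not share that direction: at base 187 the differences were −0.77 and −1.02, and at base 336 −0.31 and −0.25, so that the mean over the 3 probes was lower than vehicle (−0.09 and −0.17). The base 187 probe was well above background on 7 arrays and the base 336 probe on 9, against 10 for the brightest probe.

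SNRPA, the U1 snRNP protein that binds the U1 RNA hairpin, also lay above vehicle in every senktide sample. It read −1.80 and −1.45 in the vehicle samples, −1.10, −1.35, −1.24 and −1.36 at the lower dose and −1.13, −1.21, −1.07 and −0.69 at the higher dose. The difference at the higher dose was 0.60 (SE 0.21, limma adjusted p = 0.293), and within slides 1 and 2 it was 0.67 and 0.23. Among the SNRP genes well above background on all 10 arrays the smallest ranges were those of SNRPB and SNRPD3. SNRPD3 was at 1.64 ± 0.15 (SD over all 10 samples) and SNRPB at 0.27 ± 0.15, and their differences from vehicle were between −0.07 and 0.14. SNRPB2, a partner of the U2 snRNP, spread most within its group of 2, at −0.54 and −1.57 in vehicle, so its differences of 0.02 and 0.14 lay inside that spread. Groups did not overlap, with senktide higher, for 2 of the 11 SNRP genes at the lower dose and 5 at the higher dose, and with senktide lower for 0 and 2, where 7.72%, 9.47%, 11.7% and 16.3% of gene names did so.

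Of the 8 SF3 genes 6 had a positive difference at each dose, and none passed the threshold. SF3B1, the largest SF3b subunit, which grips the branch site, read −0.61 and −0.49 in vehicle, −0.42, −0.44, −0.45 and −0.41 at the lower dose and −0.27, −0.33, 0.01 and −0.19 at the higher dose. The 3 groups did not overlap, and the values were in the order of the dose. The differences of 0.13 (SE 0.18, limma adjusted p = 0.788) and 0.36 (SE 0.18, limma adjusted p = 0.387) did not pass the threshold, nor did that between the doses (0.23, SE 0.14, limma adjusted p = 0.999). Between the doses 1.56% of gene names were without overlap and higher at the higher dose and 1.19% lower, and 2 of the 65 genes were higher, SF3B1 and HNRNPA2B1. SF3A3, a subunit of SF3a, differed by 0.14 and 0.49, with overlap of the groups. SF3B14 (now SF3B6), which contacts the branch point adenosine, differed by −0.19 and 0.01 and SF3B5 by 0.23 and 0.12.

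Of the 14 tested SR genes 4 had a positive difference at the lower dose and 7 at the higher, and none passed the threshold. The group was made by the names SRSF and SFRS on the array. It includes SFRS12 (now SREK1), SFRS16 (now CLASRP), SRSF2IP (now SCAF11) and SFRS18, which do not carry an SRSF name today. SRSF11, an SR-related protein, read −1.63 and −1.90 in vehicle, −2.15, −2.18, −2.62 and −2.73 at the lower dose and −2.23, −2.25, −2.70 and −2.75 at the higher dose. Within each dose the 2 lowest samples were those of slide 3. The differences from vehicle of −0.66 (SE 0.26, limma adjusted p = 0.405) and −0.72 (SE 0.26, limma adjusted p = 0.293) turned positive when arrays were scaled to all probes (0.40 and 0.45 at the 75th percentile, 0.66 and 0.70 at the median). Within slides 1 and 2 they were −0.53 and −0.28 at the lower dose and −0.60 and −0.35 at the higher dose.

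SRSF1, the founding member of the family, stood on the other side, at −1.21 and −1.01 in vehicle. It read −0.66, −0.35, −0.67 and −0.86 at the lower dose and −0.84, −0.64, −0.95 and −0.66 at the higher dose, without overlap with vehicle. Its differences were 0.47 (SE 0.21, limma adjusted p = 0.439) and 0.33 (SE 0.21, limma adjusted p = 0.459). SRSF9 and SRSF3 varied least, at 0.09 ± 0.11 and −0.90 ± 0.15 (SD over all 10 samples), and SRSF7 differed by −0.23 and 0.04. At the base 429 probe of SRSF7 shown above, the differences were −0.30 and 0.04.

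Of the hnRNPs well above background on all 10 arrays, HNRNPK and HNRNPR varied least. HNRNPK, which binds runs of C, lay from 0.79 to 1.17 over the 10 samples and HNRNPR from −1.25 to −0.90, and their differences from vehicle were between −0.13 and −0.08. HNRNPA2B1, which carries RNA and reads its modifications, gave the smallest p between the doses. It read −2.25 and −1.75 in vehicle, −2.75, −2.16, −2.11 and −2.32 at the lower dose and −1.85, −1.76, −1.26 and −1.54 at the higher dose. The doses did not overlap, with vehicle overlapping both, and the difference of 0.73 (SE 0.22, limma adjusted p = 0.999, unadjusted p = 0.00783) did not pass the threshold. It was 0.90, 0.39 and 0.81 within slides 1, 2 and 3.

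HNRNPH1 spread over 1.12 log2 units at its brightest probe, from −1.56 in a vehicle sample to −0.44, with differences of 0.15 and 0.45. Its overlapping probes at bases 1054 and 1070 gave −0.15 and 1.14, and −0.26 and −0.21, for the same comparisons. The probe at base 1054 was well above background on 5 arrays and the other on 4, and neither on a vehicle array. At the higher dose the former read −2.41 in 1 sample and −5.59, −4.12 and −4.07 in the rest. HNRNPC and HNRPLL (now HNRNPLL), named after their values were seen, differed by 1.102 and 0.90 and by −1.07 and −0.75, and both were well above background only on slide 3, which held no vehicle array. HNRNPUL2, also named after its values were seen, was well above background on 4 arrays and differed by −1.29 (SE 0.81) and −1.73 (SE 0.81), with limma adjusted p-values of 0.524 and 0.374, and its 4 lowest values were those of slide 3.

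PRPF8, the core protein of the U5 snRNP, differed from vehicle by −0.10 and −0.11, within the spread of its samples. PRPF38A, which joins the spliceosome before its activation, was by its brightest probe the furthest below vehicle of the PRPF genes at both doses. It read −2.12 and −2.64 in vehicle, −3.69, −2.88, −3.28 and −3.42 at the lower dose and −4.35, −3.17, −3.42 and −3.62 at the higher dose, and 3 of the 8 senktide values were not well above background. The differences were −0.94 (SE 0.35, limma adjusted p = 0.382) and −1.26 (SE 0.35, limma adjusted p = 0.228). Scaled to all probes they were 0.12 at the lower dose (75th percentile) and 0.16 at the higher dose (median). Within slides 1 and 2 this probe differed by −1.57 and −0.24 at the lower dose and by −2.23 and −0.54 at the higher dose. A second tested probe, starting at base 2595, differed there by 0.01 and −0.13, and by −1.04 and −0.02.

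RSRC2 and ISY1 had the smallest p-values of the 65 genes at both doses. RSRC2 read −2.10 and −1.83 in vehicle at its base 809 probe, the former not well above background. It read −3.28, −2.96, −3.78 and −3.63 at the lower dose and −3.24, −3.12, −3.19 and −3.60 at the higher dose. All 8 senktide samples lay below both vehicle samples, by −1.45 (SE 0.26, limma adjusted p = 0.185) and −1.32 (SE 0.26, limma adjusted p = 0.172), and the second became 0.10 with the median over all probes as each array's scale. At base 1057 the differences were −0.99 and −0.61, and the arrays of slide 1 alone gave −0.36 and −0.24, those of slide 2 −1.55 and −0.64. Within slides 1 and 2 the base 809 probe differed by −1.18 and −1.13 at the lower dose and by −1.14 and −1.29 at the higher dose.

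ISY1, a component of the spliceosome that works in its catalytic steps, went the other way. It read −4.69 and −4.26 in vehicle, neither well above background, −3.01, −3.47, −3.48 and −3.17 at the lower dose and −3.40, −3.51, −3.12 and −3.50 at the higher dose. The fitted differences were 1.19 (SE 0.23, limma adjusted p = 0.185) and 1.09 (SE 0.23, limma adjusted p = 0.172). The lowest signal well above background lay at −2.56 and −3.30 on the vehicle arrays, and the senktide means did not exceed the mean of these, so no fold is given for ISY1, and with low signals raised to that floor the differences were −0.23 and −0.45.

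**Figure D3:**
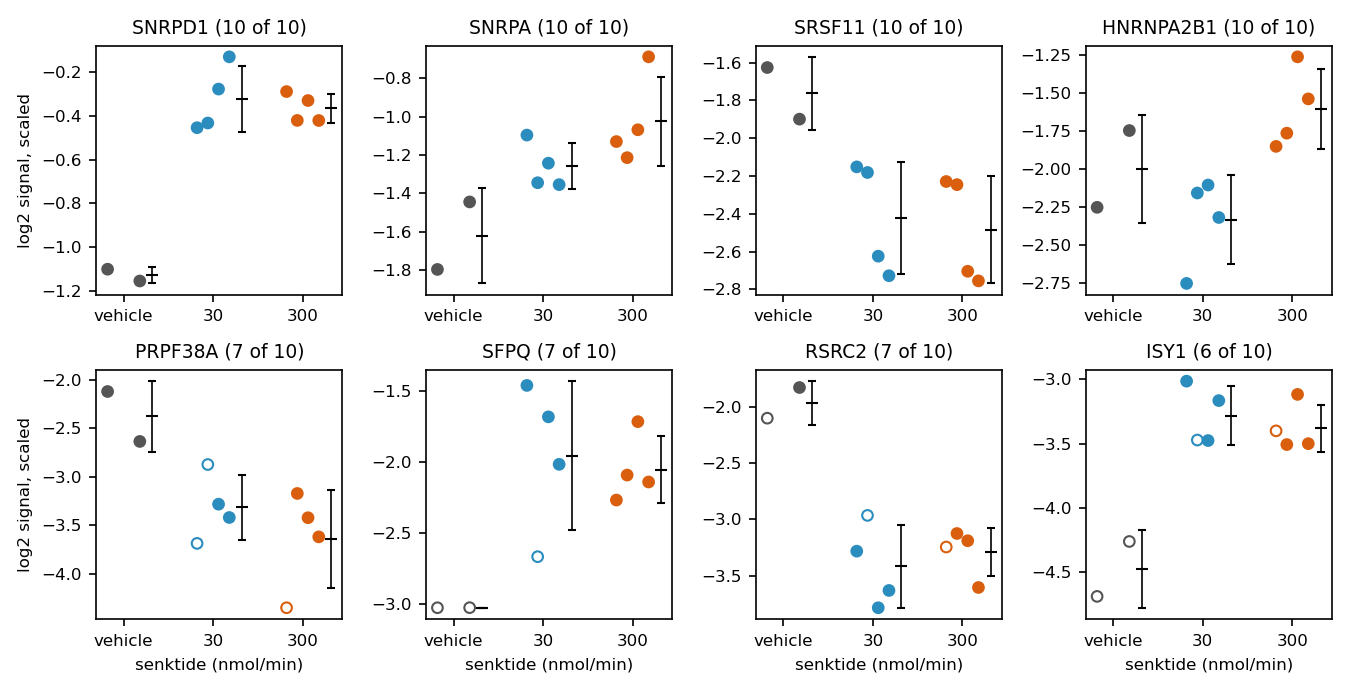
Scaled log2 signal (y axis) of 8 genes in each of the 10 samples by group, with filled points for signals well above background, open points for those that were not, and bars for the mean and SD; the count of arrays well above background stands beside each name. SNRPD1 and SNRPA lie higher and SRSF11 lower in every senktide sample than in both vehicle samples, and SFPQ and ISY1 have no vehicle signal well above background.

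None of the 3 paraspeckle proteins passed the threshold at its brightest probe in any comparison. SFPQ read −3.03 in both vehicle samples, neither well above background, and −1.46, −2.67, −1.68 and −2.02 at the lower dose and −2.27, −2.09, −1.72 and −2.14 at the higher dose. A bound was taken against the higher of each vehicle array's lowest signal well above background and the probe's own. By it the mean was 1.78-fold higher at the lower dose and 1.67-fold higher at the higher dose. The lower-dose mean includes the −2.67, which was not well above background. The bound does not allow for the spread of the samples, and the probe passed the filter through senktide arrays alone. The limma adjusted p-values of the fitted differences (1.07, SE 0.32, and 0.97, SE 0.32) were 0.312 and 0.273. SFPQ and PRPF4 were the only genes, of 18 tested without a vehicle signal well above background, with such a bound above 1 at the lower dose. Within slides 1 and 2 the SFPQ probe differed by 1.57 and 0.36 at the lower dose and by 0.76 and 0.93 at the higher dose. A second SFPQ probe, well above background on 1 vehicle array and all senktide arrays, differed by 0.56 and 0.32, and the arrays of slide 1 alone gave 0.69 and 0.35, those of slide 2 0.24 and −0.27.

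PSPC1 was well above background on the 4 slide 3 arrays and no other. Its differences of −0.17 and −0.70 had limma adjusted p-values of 0.868 and 0.389 and turned positive under scaling to the 75th percentile of all probes (0.89 and 0.47) and under quantile normalization (0.92 and 0.60). NONO, by contrast, had a brightest probe well above background throughout, starting at base 2411. It read −0.76 and −0.34 in vehicle, −0.19, 0.05, −0.67 and −0.17 at the lower dose and −0.34, 0.07, −0.04 and −0.09 at the higher dose. The differences were 0.31 (SE 0.25, limma adjusted p = 0.605) and 0.45 (SE 0.25, limma adjusted p = 0.420).

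The NONO probe at base 1198 read the opposite, and was the 1 probe of the 121 tested for these genes that passed the threshold in any comparison. It read −3.50 and −3.42 in vehicle, −4.82, −5.09, −5.03 and −5.16 at the lower dose and −5.39, −4.85, −4.91 and −5.13 at the higher dose. Both doses together differed from vehicle by −1.59 (SE 0.19, limma adjusted p = 0.0335), where 0.0336% of all tested probes were past the threshold, against 0% and 0.0112% for the doses singly and 0% between them. The probe was well above background only on the 4 arrays of slide 3, so no fold is given. On the vehicle arrays no signal under −2.56 and −3.30 was well above background, and both NONO values are lower; that floor lay between −5.27 and −5.44 on slide 3. The call was lost when arrays were scaled to all probes (−0.47, limma adjusted p = 0.582), with slide as a block (0.0946) and without any 1 senktide sample (0.0578 to 0.0957). The neighbouring probe at base 1292 differed by −1.32 and −1.56, and it too was well above background on only 4 arrays. Most of its signals therefore cannot be read as levels either, so no fold is given for it. Its direction is not separate evidence of a lower level.

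Whether a gene's probes told the same story was then examined over all of these genes. Of 56 further tested probes, 30 had the sign of the gene's brightest probe at the lower dose and 28 at the higher dose. Where a transcript had several probes, the one nearest its 3′ end was well above background on more arrays than the first in 45 of 51 transcripts, on as many in 6 and on fewer in 0. The probes differ in sequence as well as in place, so this count is a description. Over all transcripts on the array with a detected probe of either kind it was so in 3452 of 4473, or 77.2%.

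The difference from vehicle was then set against the place of the probe. In 33 transcripts with both end probes tested, the difference at the last probe exceeded that at the first in 27 at the lower dose and 22 at the higher dose, or 81.8% and 66.7%, against 61.1% and 62.02% of 1472 transcripts on the whole array, so the share at the higher dose was near that background. In the 9 transcripts with both end probes well above background on every array it was 6 at each dose and 5 for both together. The background was 57.0%, 57.5% and 56.2% of 381 transcripts. The end probes lay a median of 638 bases apart in the 33 transcripts against 273.5 in the 1472. In the 9 it was 147 bases against 132 in the 381. The shares of the 33 are thus not matched to their background for distance. In SNRPD1 the differences ran from −0.77 and −1.02 at base 187 through −0.31 and −0.25 at base 336 to 0.80 and 0.76 at base 591. These 3 probes were well above background on 7, 9 and 10 arrays. In HNRNPF, named after its values were seen, they did not follow the place, at −0.12 and 0.38, 0.44 and 0.56, 0.16 and 0.15, and 0.02 and 0.12 from the first tested probe to the last.

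**Figure D4:**
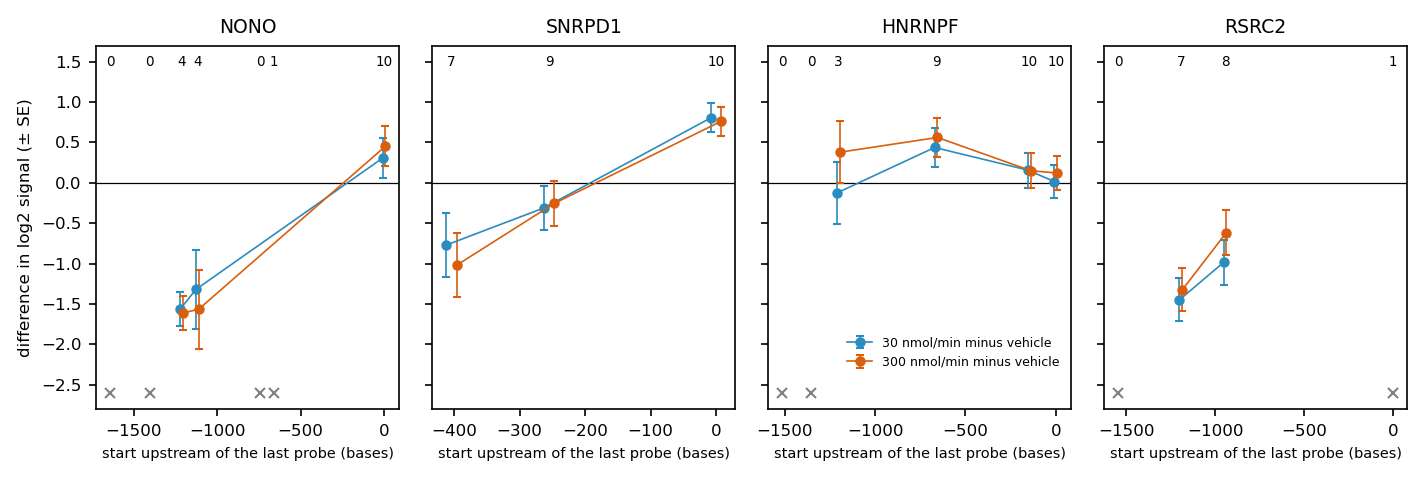
Difference in log2 signal from vehicle (y axis) of each probe of 4 transcripts against the distance of its start from that of the last probe (bases, x axis), at 30 and 300 nmol/min, with limma standard errors; crosses mark probes not tested and the numbers along the top count the arrays well above background. NONO and SNRPD1 run from negative values upstream to 0.31 and 0.45 and to 0.80 and 0.76 at the last probe, whereas HNRNPF does not.

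A ratio within an array needs no scaling between arrays, so the last probe was set against the first on each array, centred on the pair's median over the arrays. The ratio is not free of each array's floor, below which a signal cannot be read as a level. Probes of the 33 pairs had to be well above background on only 2 or more arrays. The first NONO probe was so on slide 3 alone, which held no vehicle array. The median over the 33 pairs was −0.215 and −0.211 on the vehicle arrays, 0.040, −0.062, 0.169 and 0.090 at the lower dose and 0.049, −0.004, −0.025 and 0.003 at the higher dose. Both vehicle arrays lay below all 8 senktide arrays. The difference was 0.246 for both doses together (exact permutation p = 0.0222, two-sided, the smallest that 45 arrangements can give; 0.0889 adjusted over the 4 comparisons). At the lower and at the higher dose it was 0.272 and 0.219 (exact permutation p = 0.0667 for each, the smallest that 15 arrangements can give, and 0.0889 adjusted). Between the doses it was −0.053 (exact permutation p = 0.371, also after adjustment). In the 9 pairs with both probes well above background on all 10 arrays it was 0.063 (exact permutation p = 0.0667, adjusted 0.267). There 1 array at the lower dose lay level with vehicle. These probes also lay nearer each other, at a median of 147 bases against 638 in the 33 pairs. Brightness and distance can therefore not be told apart here. The 1472 pairs of all transcripts gave 0.105 (exact permutation p = 0.0222, adjusted 0.0889), at a median distance of 273.5 bases. The 381 bright pairs of all transcripts gave 0.024 (exact permutation p = 0.111, adjusted 0.267), at 132 bases. The share of these genes' probes well above background was 22.1% and 32.4% on the vehicle arrays and 30.2% to 54.5% on the senktide arrays. The part of detection in the ratio was not tested apart from that of distance.

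**Figure D5:**
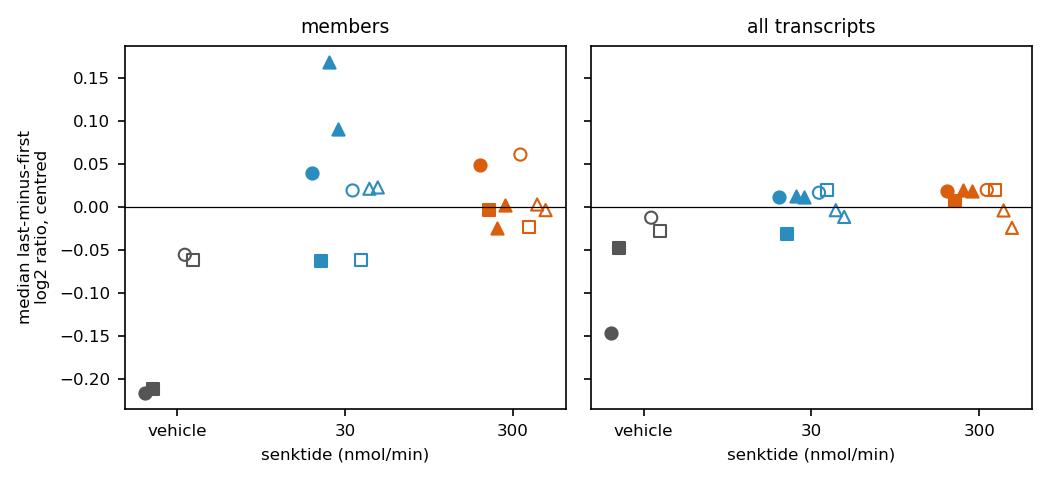
Median over transcripts of the log2 ratio of the last probe to the first, centred per pair (y axis), on each array by group for the splicing genes (left) and all transcripts (right); filled marks are pairs with both probes tested, open marks the bright pairs (both probes so on every array), with the shape for the slide (circle 1, square 2, triangle 3). The vehicle arrays lie at −0.215 and −0.211 for the splicing genes, and at −0.055 and −0.061 in the bright pairs.

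The remaining splicing machinery, 138 genes from a list of other spliceosome parts and cofactors, was measured the same way. Of these, 103 were tested and 42 were well above background on all 10 arrays. In each of the 4 comparisons 0 of the 103 were past the threshold by limma. At an unadjusted limma p under 0.05, 7 stood above and 3 below vehicle at the lower dose, with 4.99% and 6.35% of gene names. At the higher dose 13 stood above and 3 below, with 5.88% and 7.86% of gene names. Their median differences were 0.109 and 0.105, against −0.109 and −0.111 over all tested probes. SNU13, which binds the U4 RNA and was well above background on all 10 arrays, had the smallest p of the 103 at the lower dose and is named after its values were seen, at 0.64 (SE 0.19, limma adjusted p = 0.312), and differed by 0.63 (SE 0.19, limma adjusted p = 0.256) at the higher dose.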

How the data were processed

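Embryo RNA (10 samples) carried Cy3 from a Quick Amp kit and was hybridised to 1-colour Agilent bovine arrays, 1 a sample, per the labels' protocols. The deposited files give spot intensity as read by Agilent Feature Extraction, version 11.5.1.1 in the file headers, where the submitters' processing notes name 10.5.1.1. The processed intensity is background-subtracted and detrended, per the file headers. Deposited flags, coded 0 or 1, mark spots well above background, outliers and saturation (0 probe spots). The deposited series matrix holds log2 values of unstated scale and centring. Setting it against the scanner values showed log2 of the processed intensity, less the 75th percentile of the whole array and less the probe's own median (within 0.01 for at least 99.959% of values), which gives its scale, centring and direction. The medians of its columns are 0.22 and 0.12 for vehicle, 0.045, 0.066, −0.13 and −0.31 for the lower dose, and 0.16, −0.18, −0.28 and −0.23 for the higher.

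Outlier spots were left out and spots of a probe averaged. Values are log2 of the processed intensity minus the array's 75th percentile, taken over 2491 probes that all 10 arrays showed well above background. The 8938 probes well above background on at least 2 arrays were fitted with limma 3.58.1 (lmFit, eBayes; R 4.3.3) over all 10 arrays, 1 coefficient a group, with Benjamini-Hochberg adjustment over all of them, after a test on simulated data. Where no array of a group showed a gene well above background, its fold is a bound. It sets the bright group's mean against the mean, over the dim arrays, of the probe's signal or the array's lowest signal well above background, whichever was higher. The number of arrays limits the precision. Coordinates are those of the files (Btau_3.1); names were updated through RefSeq (ARS-UCD2.0, names only), which matched 219 of 222 probes. Tables and figures were made in Python 3.11.15 (numpy 2.4.6, pandas 2.3.3, matplotlib 3.10.9). Probe sequences are from the deposited files.

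Members and lists were chosen with earlier results of these data known. Named genes were NONO, SFPQ, PSPC1, RSRC2 and ISY1, the 4 smallest limma p per comparison among members well above background on at least 1 array of each group, and the 2 largest and 2 smallest ranges per family among members so on all 10 arrays. Alternatives were other scalings, normalizations, filters and floors, slide and replicate number as blocks, left-out replicates, other probes per gene and the series matrix.

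Groups and replicate numbers came from the titles. Between the doses, deviations of same-numbered samples from the group means correlated at r = 0.487, 0.495, 0.565 and 0.575. Different numbers gave 0.545 and 0.492 within slide 3, and 0.413 and 0.417 between slides 1 and 2. Pairing by number can therefore not be told apart from the split between slide 3 and the other slides. Against vehicle the same-numbered pairs had r = 0.124, 0.179, −0.188 and −0.198. Deviations of the 2 vehicle samples from their mean mirror each other, so these values cannot show whether the numbers pair. Slide and scan marked the same arrays.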

Additional observations from a re-analysis of the deposited data

Results flagged for a closer look

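In the 300 nmol/min group SRSF7, an SR protein, had 1 sample apart from the rest: its log2 signal was −0.01, where the nearest of the other samples was at 0.18, a gap of 0.933 of the group's range. It was the 1 such group among 56 checked, where chance alone gives about 2.8.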

How the results depend on the processing

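The count of genes past the threshold, 0 in each comparison, held in every alternative except quantile normalization (2 at 30 nmol/min, 2 at 300 nmol/min and 3 for both doses together; HNRNPC and RSRC2, with ISY1 for both) and normexp with quantile normalization (1, 1 and 3; SNRPD1, with SFPQ and RSRC2 for both), where calls over all probes rose as well, to 223 and 178 for both doses. Scaling to all probes raised the median of all tested probes from −0.109 to 0.948 (75th percentile) and 1.21 (median) at 30 nmol/min, with 91.9% and 95.1% of probes higher in place of 40%. The median over the genes at 30 and 300 nmol/min, between the doses and for both doses became 1.073, 1.26, 0.135 and 1.173 at the 75th percentile, 1.337, 1.514, 0.125 and 1.432 at the median, and 1.072, 1.26, 0.134 and 1.172 with the series matrix. Quantile normalization gave 0.212, 0.267 and 0.255 against vehicle, and a floor under low signals −0.117, −0.076 and −0.091. At 30 nmol/min slides 1 and 2 alone gave −0.091, and at 300 nmol/min the mean over probes gave −0.02. Leaving out 1 sample gave medians from −0.044 to 0.062 (30 nmol/min), from 0.021 (without vehicle 1) to 0.113 (300 nmol/min), from −0.006 to 0.043 (between doses) and from 0.007 to 0.078 (both doses). With the replicate number as a block the medians were −0.037, 0.062, 0.020 and −0.010, 0 genes passed, and the block ended the call of the NONO base 1198 probe (limma adjusted p = 0.219, 0.0335 to 0.819 over all settings); it changed no other call. Directions turned for single genes. For ISY1 the floor gave −0.23, −0.45 and −0.34 (30, 300 and both). The mean over probes gave −0.09, −0.17 and −0.13 for SNRPD1 and −0.86 and −0.91 for NONO (30 and 300). Under scaling to the 75th percentile of all probes, to their median and with the series matrix, PRPF38A was 0.12, 0.38 and 0.12 (30 nmol/min), 0.16 under the median (300) and 0.01, 0.27 and 0.01 (both); SRSF11 was 0.40, 0.66 and 0.40, then 0.45, 0.70 and 0.45, then 0.42, 0.68 and 0.42; PSPC1 was 0.89, 1.15 and 0.89 (30) and 0.47, 0.72 and 0.47 (300), with 0.92 and 0.60 under quantile and 0.21 and 0.12 under normexp with quantile normalization, and from −0.35 to 0.04 at 30 nmol/min without 1 sample, the positive value without senktide 30 replicate 1. RSRC2 at 300 nmol/min was 0.10 under the median of all probes. Within slide 2 the share of genes detected differed from vehicle by −4.22 points (30), 11.27 (300) and 3.52 (both), against 23.59, 25.0 and 24.3 over all arrays. The last-to-first ratio for both doses was 0.063 in the bright pairs, against 0.246, an alternative chosen after seeing the data, as was slide 3 alone for the doses. The cause of these changes was not tested. On the vehicle arrays signals below a scaled log2 of −2.56 and −3.30 cannot be read as levels.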
